A study of Saccharomyces cerevisiae with 28 samples.

Results

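The genes described here encode the proteins of the small (40S) subunit of the cytosolic ribosome of Saccharomyces cerevisiae. They were chosen by name, as the RPS0 to RPS31 genes with both copies of each duplicated gene, which gave 56 of the 7125 genes in the table. The 56 genes encode 32 proteins: 24 proteins are encoded by a pair of paralogs, called the A and the B copy, and 8 by a single gene. RNA was sequenced from 5 mutants and 3 wild types grown in YPD, a rich glucose medium, and harvested at an OD600 of 0.7 to 1.0. The mutants were acs2-ts, compared with its own wild type (WT of acs2-ts), pyk1, compared with its own wild type (WT of pyk1), and sam1, ser33 and shm2, compared with BY4741, a standard laboratory strain. Each strain had 2 biological replicates, called cultures here. The series title names SESAME, a complex of metabolic enzymes; ACS2 encodes an acetyl-CoA synthetase, PYK1 is another name of the pyruvate kinase gene CDC19, SAM1 encodes an S-adenosylmethionine synthetase, SER33 a phosphoglycerate dehydrogenase of serine synthesis and SHM2 a serine hydroxymethyltransferase. The name acs2-ts is used here for the strain whose genotype label reads acs2, and ts commonly stands for temperature-sensitive. The labels give no growth temperature, no allele for pyk1 and no strain background for the wild types of acs2-ts and pyk1.

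The small subunit binds mRNA, scans for the start codon and decodes it, while the large subunit joins amino acids. In yeast the genes for both subunits are transcribed together at high rates in growing cells, under the DNA-binding factor Rap1 with Fhl1 and Ifh1 or, at a few genes, Abf1, and they are turned down together when growth slows or stress sets in. Most of these genes survive in duplicate from an ancient genome duplication, and the copies of a pair encode the same or almost the same protein. Introns are rare in yeast but common in these genes, and 36 of the 56 genes carried at least 1 in the RefSeq annotation of the R64 genome.

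The coding sequences of the 2 copies of a pair were 84.3% to 99.2% identical, with a median of 92.8%, and 9 of the 24 pairs were identical at 95% or more of bases, RPS6, RPS23 and RPS30 among them, so that values of the single copies of those 9 pairs are uncertain where the authors' counting split shared reads. The pairs RPS22 and RPS28, whose A to B ratios varied most over the 16 cultures (11.2-fold and 7.77-fold), were below this limit. They are shown here because within the coding sequence only the differing bases, in capitals, can tell the copies apart. In the RefSeq annotation RPS22A (YJL190C, chrX:74910-75302, minus strand) has no intron and RPS22B (YLR367W, chrXII:856442-857317, plus strand) has 1. Both encode uS8, and they differ at 41 of 393 coding bases. Of these, 25 lie in the 240 bases from the start codon shown here. RPS28A (YOR167C, chrXV:648804-649007, minus strand) and RPS28B (YLR264W, chrXII:673131-673334, plus strand) encode eS28, have no intron and differ at 24 of 204 coding bases, shown whole.
RPS22A: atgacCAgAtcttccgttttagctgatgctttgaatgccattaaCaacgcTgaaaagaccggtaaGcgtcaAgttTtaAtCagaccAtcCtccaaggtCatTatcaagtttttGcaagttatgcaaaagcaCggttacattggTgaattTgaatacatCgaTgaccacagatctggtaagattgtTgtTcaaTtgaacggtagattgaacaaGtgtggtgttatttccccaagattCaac
RPS22B: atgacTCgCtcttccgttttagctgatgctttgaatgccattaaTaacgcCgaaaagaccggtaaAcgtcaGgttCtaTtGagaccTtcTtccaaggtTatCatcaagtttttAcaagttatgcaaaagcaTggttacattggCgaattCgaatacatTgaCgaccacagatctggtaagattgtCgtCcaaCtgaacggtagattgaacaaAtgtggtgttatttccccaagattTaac
RPS28A: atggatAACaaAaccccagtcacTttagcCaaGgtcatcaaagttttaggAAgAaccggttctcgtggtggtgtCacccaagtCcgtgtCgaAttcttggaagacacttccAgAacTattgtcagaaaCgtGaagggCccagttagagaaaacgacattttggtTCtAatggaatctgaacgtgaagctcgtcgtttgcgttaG
RPS28B: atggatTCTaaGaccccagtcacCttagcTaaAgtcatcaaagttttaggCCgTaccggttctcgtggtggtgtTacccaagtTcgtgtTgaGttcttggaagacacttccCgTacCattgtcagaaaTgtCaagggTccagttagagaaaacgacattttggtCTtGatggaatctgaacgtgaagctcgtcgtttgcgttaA

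The table holds RPKM, which are reads scaled to the length of the transcript and to the reads of the library, so levels of different genes can be set side by side, and every value is a share of the RNA in its library. A lower value for the whole family and a larger amount of other RNA per cell cannot be told apart on this scale. Read totals, recovered from the steps between low values, were 4330000 to 36400000 per library, and the smallest single-exon member had 34 reads in its lowest library. In the mutants named for them, SAM1, SER33 and SHM2 were at 0.152 to 0.352 RPKM, against 28.9 to 317 RPKM in BY4741. ACS2 was at 557 and 505 RPKM in acs2-ts, against 247 and 219 RPKM in its wild type. CDC19 was at 3896 and 4147 RPKM in pyk1, against 4073 and 3162 RPKM in its wild type, and this level does not check the label.

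The family was among the abundant transcripts of every culture, but its level differed widely between strains. The summed RPKM of the 56 genes was 17199 and 16716 in acs2-ts, against 51455 and 52407 in its wild type. In pyk1 the sum was 36565 and 36236, against 41652 and 42757 in its wild type. In sam1 it was 34337 and 52551, in ser33 18459 and 16687, and in shm2 27672 and 16661, against 14189 and 23964 in BY4741. The cultures of sam1 were thus above both BY4741 cultures and those of acs2-ts and pyk1 below their wild types, while ser33 and shm2 overlapped BY4741. The 2 cultures of BY4741 differed 1.69-fold, those of shm2 1.66-fold and those of sam1 1.53-fold, whereas in the other 5 strains they differed at most 1.11-fold. BY4741 had less than the other wild types in both of its cultures; these strains were not compared by a test.

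**Figure D1:**
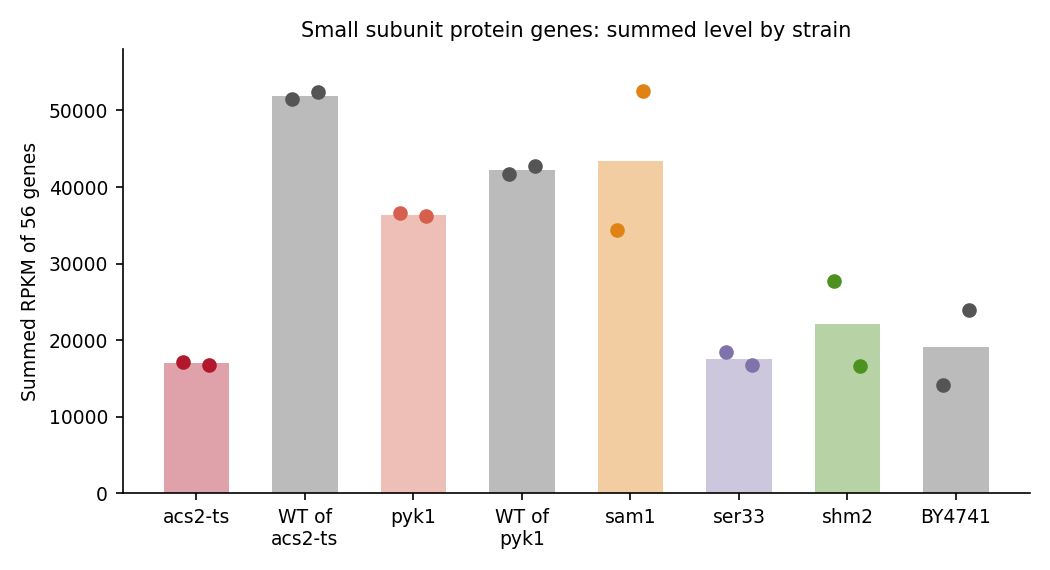
Summed RPKM of the 56 small subunit protein genes (y axis) in the 8 strains (x axis); points are the 2 cultures of a strain and bars their mean. The acs2-ts cultures lie at 17199 and 16716 RPKM, below 51455 and 52407 in their wild type, and both sam1 cultures lie above both BY4741 cultures.

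Individual genes spanned a wide range of levels. Averaged over the 8 strains, the highest were RPS31 at 1516 RPKM, RPS30A at 1211 RPKM and RPS26A at 1043 RPKM. RPS31 was the highest gene in 9 of the 16 cultures and RPS30A in 7, namely those of pyk1, ser33 and BY4741 and shm2 culture 2. RPS31 encodes ubiquitin fused to eS31, eS30 lies near the mRNA entry of the subunit, and eS26 lies near the mRNA exit. The lowest were RPS14B at 208 RPKM, RPS9A at 134 RPKM and RPS28B at 97.0 RPKM, each the weaker copy of its pair, and RPS28B was the lowest gene in 11 cultures and RPS9A in 5. Summed over the copies of each pair, the level of the 32 proteins' transcripts was most uneven in ser33 and BY4741. The SD of the log2 level over the 32 proteins was 0.80 and 0.81 in ser33, 0.57 and 0.66 in shm2 and 0.51 and 0.46 in sam1, against 0.80 and 0.70 in BY4741. It was 0.43 in both acs2-ts cultures, against 0.42 and 0.51 in their wild type, and 0.45 and 0.44 in pyk1, against 0.42 and 0.45 in its wild type. The highest protein total exceeded the lowest 9.88-fold and 10.6-fold in the ser33 cultures, 3.83-fold and 4.23-fold in the sam1 cultures, and 8.82-fold and 6.46-fold in the BY4741 cultures. The lowest total was that of RPS9 in both ser33 cultures and in BY4741 culture 2.

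**Figure D2:**
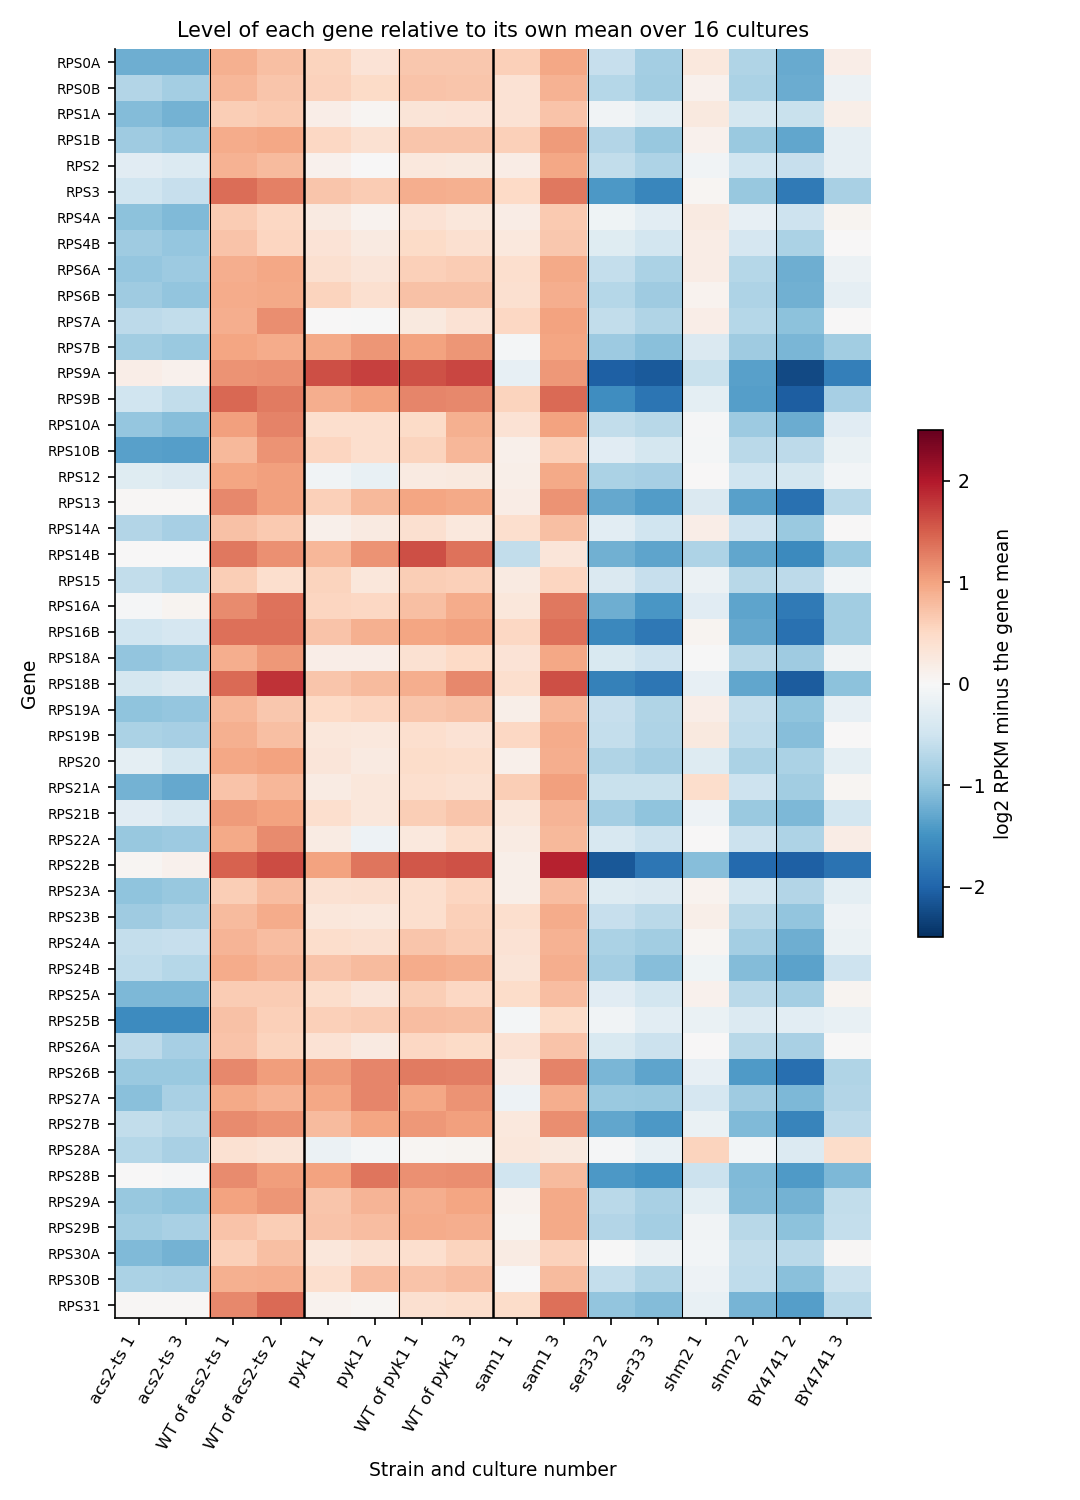
Level of 49 of the 56 genes (rows) in each of the 16 cultures (columns, by strain and culture number), as log2 RPKM minus the gene's mean over the cultures; red is above and blue below that mean, and thick lines separate each set of mutants with its wild type. RPS9A, RPS9B, RPS22B and RPS18B show the deepest blue, in ser33 and in BY4741 culture 2, while RPS25B and RPS10B are lowest in acs2-ts.

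Differences between strains were tested with limma on log2(RPKM + 1), in which fold changes of low genes are understated, and called at an adjusted p under 0.05 over all 7125 genes. In acs2-ts all 56 genes were lower than in the wild type as deposited, with adjusted p of 1.3e-04 to 2.7e-04, but most other genes were too. The background was 78.1% of all genes called lower and 5.7% called higher. The median log2 fold change was -1.67 over the 56 genes, a 3.18-fold lower level, and -1.27 over all genes. The family thus lay 0.39 below the median of all genes, and 48 of 56 genes were below it. A pseudocount of 0.1 in place of 1 gave medians of -1.67 and -1.43, and put the family at -0.24 relative to all genes. With median-of-ratios scaling, which sets the bulk of genes equal between libraries, the medians were -0.15 for the family and 0.03 for all genes, and 13 of the 56 genes were called lower and 7 higher, against 21.9% and 28.5% of all genes. Relative to ACT1, the actin gene, all 56 genes were again called lower with a median of -1.53, against 76.9% of all genes. The family's median was thus below 0 under all 3 scalings, by 0.15 to 1.67 on the log2 scale, and median-of-ratios scaling left the fewest of its genes called lower.

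Within the family, RPS10B and RPS25B were among the lowest. RPS10B, encoding eS10, was at 207 and 203 RPKM in acs2-ts, against 924 and 1143 RPKM in its wild type, and its log2 fold change was -2.31 ± 0.13 (SE, n = 2 each). RPS25B, encoding eS25, was at 109 and 109 RPKM in acs2-ts, against 538 and 491 RPKM, a log2 fold change of -2.23 ± 0.10. The cultures of the 2 strains did not overlap for these genes, nor for any other of the 56 genes, and 82.2% of all genes had both acs2-ts cultures below both wild-type cultures. At the other end, RPS9A, which encodes uS4, a protein near the mRNA entry, was at 99.9 and 95.8 RPKM in acs2-ts, against 194 and 196 RPKM, a log2 fold change of -0.99 ± 0.10. RPS13, the single gene of uS15, was at 447 and 448 RPKM in acs2-ts, against 1008 and 895 RPKM, with -1.08 ± 0.11 on the log2 scale. RPS28A was at 335 and 311 RPKM in acs2-ts, against 710 and 680 RPKM, with -1.10 ± 0.10 on the log2 scale. These genes lay above the median of all genes, and with median-of-ratios scaling their log2 fold changes were 0.53 for RPS9A, 0.44 for RPS13 and 0.42 for RPS28A.

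The 8 single-copy genes had a median log2 fold change of -1.30 in acs2-ts, against -1.74 for the 24 A copies and -1.70 for the 24 B copies. Among them RPS3, whose protein uS3 lines the mRNA entry, was lowest at -1.85 ± 0.11. In order, RPS12 (eS12, in the beak of the head) was at -1.34, RPS20 (uS10, in the head) at -1.32, RPS31 at -1.29, RPS15 (uS19, in the head) at -1.18, RPS2 (uS5, near the mRNA entry) at -1.15 and RPS13 at -1.08. Neighbours in the order from RPS12 to RPS13 differed by less than their SE of 0.11 to 0.13. The 36 genes with an intron had a median of -1.70 and the 20 without one a median of -1.51. Across the 56 genes the log2 fold change had a Pearson r of 0.45 with the GC content of the coding sequence, which ran from 37.7% to 48.4%. The genes share the same 4 cultures, so this describes these libraries only.

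**Figure D3:**
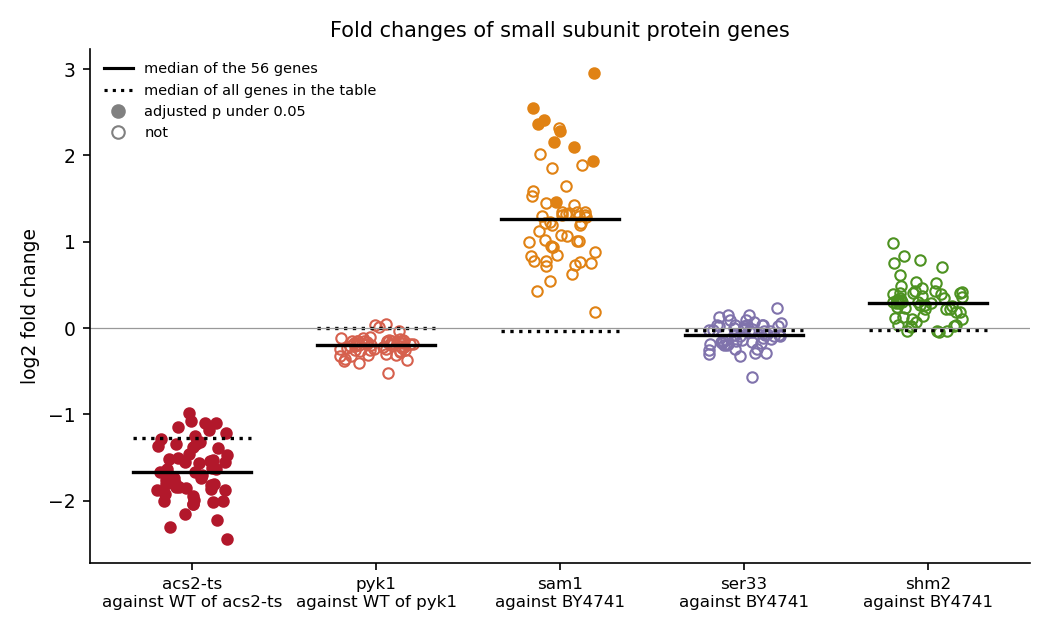
log2 fold change (y axis) of each of the 56 genes in the 5 comparisons of a mutant with its wild type (x axis); filled points passed an adjusted p under 0.05, solid lines are medians of the 56 genes and dotted lines medians of all 7125 genes. The solid line lies at -1.67 for acs2-ts on the deposited scaling, -0.20 for pyk1, 1.26 for sam1, -0.08 for ser33 and 0.29 for shm2.

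In pyk1 most of the genes had slightly lower values than in the wild type, and none passed the test. limma called 0 of the 56 genes and 0 of all genes, a background of 0%, and the smallest adjusted p of a member was 0.272. At an unadjusted p under 0.05 there were 20 members lower, against 7.49% of all genes, and 0 higher. The median log2 fold change was -0.20 over the 56 genes, with a range of -0.52 to 0.05, and 0.00 over all genes. Both pyk1 cultures were below both wild-type cultures for 51 of the 56 genes, which 24.1% of all genes shared. RPS14B, encoding uS11 of the platform, had the lowest value, with 283 and 348 RPKM in pyk1, against 491 and 411 RPKM in its wild type (log2 fold change -0.52 ± 0.16, adjusted p = 0.338). RPS22B had a log2 fold change of -0.41, and RPS27A, RPS9A and RPS28B stood at 0.05, 0.03 and 0.01. RPS14A stood at -0.15 and RPS9B at -0.25. The single-copy genes ranged from -0.37 for RPS12 to -0.19 for RPS15 and RPS20.

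In sam1 every one of the 56 genes had a higher mean than in BY4741, by 0.18 to 2.96 on the log2 scale, and 54 of them had both sam1 cultures above both BY4741 cultures, against 31% of all genes. The median log2 fold change was 1.26, a 2.39-fold higher level, with -0.03 over all genes. limma called 9 of the 56 genes higher (16.1%) and 0 lower, against 8% of all genes called higher and 8.29% called lower, and 47 members were higher at an unadjusted p under 0.05, against 20.5% of all genes. The size of the difference depended on single cultures. The median of the family was 0.77 without BY4741 replicate 2 and 1.62 without BY4741 replicate 3. Without sam1 replicate 3 it was 0.95, and without sam1 replicate 1 it was 1.54. The calls, too, depended on single cultures, and also on the set of strains fitted. With all 8 strains in 1 model, which pools the spread of all strains, 53 members were called, against 20.1% of all genes. With the 2 strains alone 0 members were called, and 0 of all genes.

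The largest value was that of RPS22B, which was at 205 and 702 RPKM in sam1, against 45.0 and 51.4 RPKM in BY4741, a log2 fold change of 2.96 ± 0.59 (SE, adjusted p = 0.0409). RPS18B, encoding uS13, which reaches across to the large subunit, was at 620 and 1423 RPKM in sam1, against 110 and 227 RPKM, with 2.55 ± 0.57 (adjusted p = 0.0438). Even the lower sam1 culture of both genes was above the higher BY4741 culture. Both copies of RPS9 rose: RPS9B was at 524 and 948 RPKM in sam1, against 85.7 and 202 RPKM in BY4741 (2.41 ± 0.56, adjusted p = 0.0456). RPS9A was at 77.5 and 188 RPKM in sam1, against 18.7 and 27.3 RPKM in BY4741 (2.36 ± 0.47, adjusted p = 0.0409). RPS16A and RPS16B, which encode uS9, a protein touching the tRNA in the P site, rose by 2.10 and 2.28 on the log2 scale. RPS7B (1.46) and the single-copy genes RPS3 (2.16) and RPS31 (1.93) completed the 9 calls. RPS3 was at 562 and 986 RPKM in sam1, against 116 and 227 RPKM in BY4741.

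Of the other single-copy genes, log2 fold changes were 1.89 (RPS13), 1.02 (RPS20), 0.95 (RPS2), 0.77 (RPS12) and 0.75 (RPS15), with adjusted p of 0.0588 to 0.123. The lowest values were those of RPS28A and RPS25B. RPS28A was at 665 and 648 RPKM in sam1, against 432 and 748 RPKM in BY4741, so its cultures overlapped (0.18 ± 0.31, adjusted p = 0.693). RPS25B was at 317 and 445 RPKM in sam1, against 271 and 288 RPKM (0.43 ± 0.19). The members with an intron had a median of 1.30 and those without one a median of 0.98.

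Copies that encode the same protein had unequal fold changes in sam1. RPS22A, which differs from RPS22B at 41 coding bases, was at 450 and 683 RPKM in sam1, against 230 and 443 RPKM in BY4741, and its log2 fold change of 0.78 was 2.18 below that of RPS22B. RPS18A stood at 1.13 and RPS18B at 2.55. The ratio of the A to the B copy was lower in both sam1 cultures than in both BY4741 cultures for 13 of 24 pairs, and higher for 4, which makes 17 of 24 pairs without overlap, against 21 of 33 pairs of the large subunit. These ratios were not tested. The B copy made up 31.3% and 50.7% of RPS22 RPKM in sam1, against 16.4% and 10.4% in BY4741, while it was 40.4% and 39.2% in the wild type of acs2-ts and 53.4% and 51.0% in that of pyk1. For RPS18 the B copy made up 45.4% and 55.6% in sam1, against 26.0% and 29.3% in BY4741. For RPS28 it made up 7.45% and 16.8% in sam1, against 6.21% and 4.46% in BY4741. The 2 libraries of a sam1 culture differed widely for RPS28B, the lowest member there. It was at 81.9 and 180 RPKM in those of culture 3 and at 41.8 and 65.3 RPKM in those of culture 1. For RPS22, RPS18 and RPS28 sam1 culture 3, which had the higher family total, was also farther from BY4741 than sam1 culture 1.

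**Figure D4:**
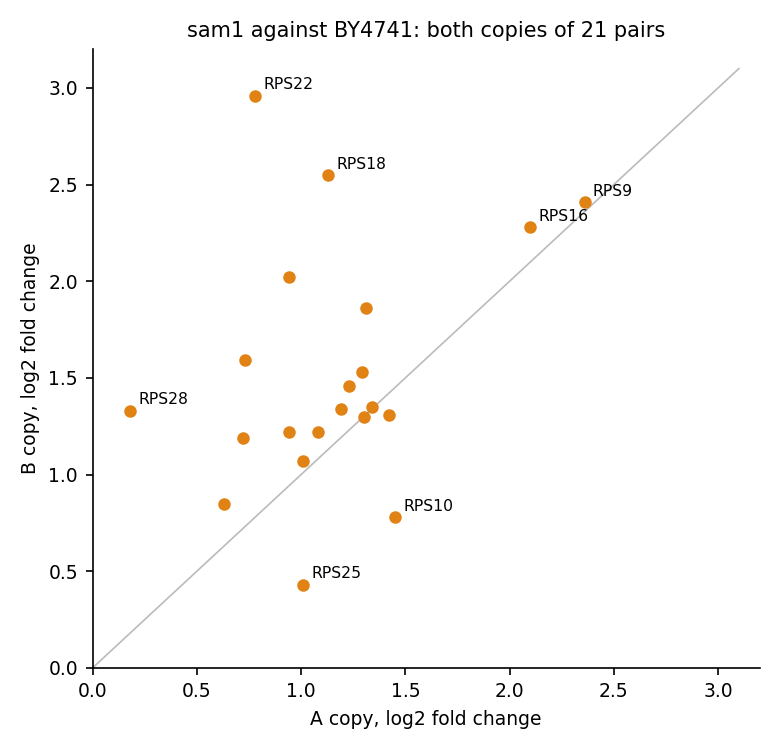
log2 fold change of the B copy (y axis) against that of the A copy (x axis) for 21 paralog pairs in sam1 against BY4741; the line marks equal change and 7 pairs are named. RPS22 (0.78 for A and 2.96 for B) and RPS18 lie far above the line, RPS9 lies near it and RPS25 below it.

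The upstream regions of RPS10A and RPS10B, chosen after their values were seen, are shown because RPS10B was among the lowest genes in acs2-ts and its copy RPS10A, at -2.15, was low too, while in sam1 their log2 fold changes were 0.78 (B) and 1.45 (A). Motif letters were searched on both strands in the 500 bases before the start codon of each gene. The Rap1 letters ACCCNNACA were found upstream of 18 of the 56 genes (32.1%), of 46.1% of large subunit genes and of 5.46% of all genes. The Fhl1 letters GACGC were found upstream of 48.2%, and of 30.4% of all genes. The 18 genes with the Rap1 letters had a median log2 fold change of 1.29 in sam1 and -1.68 in acs2-ts, and the 38 others 1.21 and -1.65. RPS10B (YMR230W, chrXIII:732167-732286, plus strand) holds both the Rap1 and the Fhl1 letters, in capitals and read on the opposite strand, in the stretch from -247 to -128 before its start codon. RPS10A (YOR293W, chrXV:866851-866970, plus strand) holds neither in the same stretch, and has the Rap1 letters farther upstream.
RPS10B upstream: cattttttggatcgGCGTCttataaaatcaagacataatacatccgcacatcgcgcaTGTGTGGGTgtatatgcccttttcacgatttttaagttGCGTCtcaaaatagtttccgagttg
RPS10A upstream: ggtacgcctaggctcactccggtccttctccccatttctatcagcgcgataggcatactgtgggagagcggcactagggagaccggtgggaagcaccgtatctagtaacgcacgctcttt

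In ser33 the family was close to BY4741. limma called 0 of the 56 genes, against 0.014% of all genes called lower and 0% higher, and 0 members passed an unadjusted p under 0.05, against 6.43% of all genes. The median log2 fold change was -0.08 over the family and -0.02 over all genes, with a median SE of 0.39 for a member. RPS12 had the lowest value, with 539 and 523 RPKM in ser33, against 689 and 889 RPKM in BY4741 (-0.57 ± 0.32, adjusted p = 0.795), followed by RPS16B (-0.33). RPS30A had the highest value at 0.23, and RPS29A (uS14) and RPS23A (uS12, at the decoding centre) stood at 0.15. The widest split of a pair was that of RPS16, with -0.02 for the A copy, followed by RPS18 (0.04 for A and -0.20 for B) and RPS23 (0.15 for A and -0.08 for B). The direction depends on which control culture is used: relative to all genes the family was at -0.45 without BY4741 replicate 2 and at 0.36 without BY4741 replicate 3.

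In shm2 the 2 cultures lay on either side of BY4741's mean. limma called 0 of the 56 genes, with the same background of 0.014% lower and 0% higher, and 0 members passed an unadjusted p under 0.05, against 6.81% of all genes. The median log2 fold change was 0.29, with 52 of 56 genes positive, and -0.02 over all genes. RPS9A had the highest value, with 60.2 and 34.8 RPKM in shm2, against 18.7 and 27.3 RPKM in BY4741 (0.99 ± 0.47, adjusted p = 0.685). RPS3 (0.84) and RPS18B (0.79) followed, and RPS15 (-0.05), RPS20 (-0.04) and RPS25B (-0.04) were lowest. Within shm2, culture 1 was above culture 2 for 56 of 56 genes, with a median log2 difference of 0.78, and within BY4741 culture 3 was above culture 2 for 56 of 56, with a median of 0.80. Across the 56 genes the difference between the shm2 cultures had a Pearson r of 0.75 with the fold change in sam1, although neither shm2 culture enters that fold change. For the differences between the cultures of acs2-ts, pyk1, ser33 and the wild types of acs2-ts and pyk1, lower number minus higher, r was -0.39 to -0.20. The strains share gene lengths and sequence, and no test was made. Relative to all genes the family was at -0.10 without BY4741 replicate 2 and at -0.11 without shm2 replicate 1. It was at 0.68 without BY4741 replicate 3 and at 0.70 without shm2 replicate 2.

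The mutants that share BY4741 were also compared with each other. Against ser33, sam1 had 23 of the 56 genes higher (41.1%) and 0 lower, against 15.5% of all genes called higher and 14.6% called lower. The median log2 fold change of the family was 1.34, and both sam1 cultures were above both ser33 cultures for 56 of 56 genes, against 35.5% of all genes. RPS22B had 3.01 (adjusted p = 0.0232), RPS18B 2.76 (adjusted p = 0.0249) and RPS9B 2.66 (adjusted p = 0.0251). The family's median was 0.95 without sam1 replicate 3, 1.36 without ser33 replicate 2 and 1.30 without ser33 replicate 3. With the replicate number added to the model, 0 members were called, and 0 of all genes. Against shm2, sam1 had 0 of the 56 genes called by limma, against 0.0842% of all genes called higher and 0.0982% called lower, with 30 members higher at an unadjusted p under 0.05, against 11.1% of all genes, and a median of 0.95. Between ser33 and shm2, 0 members were called, against 0.014% of all genes in each direction, 0 passed an unadjusted p under 0.05, against 15.3% of all genes, and the median was -0.37.

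**Figure D5:**
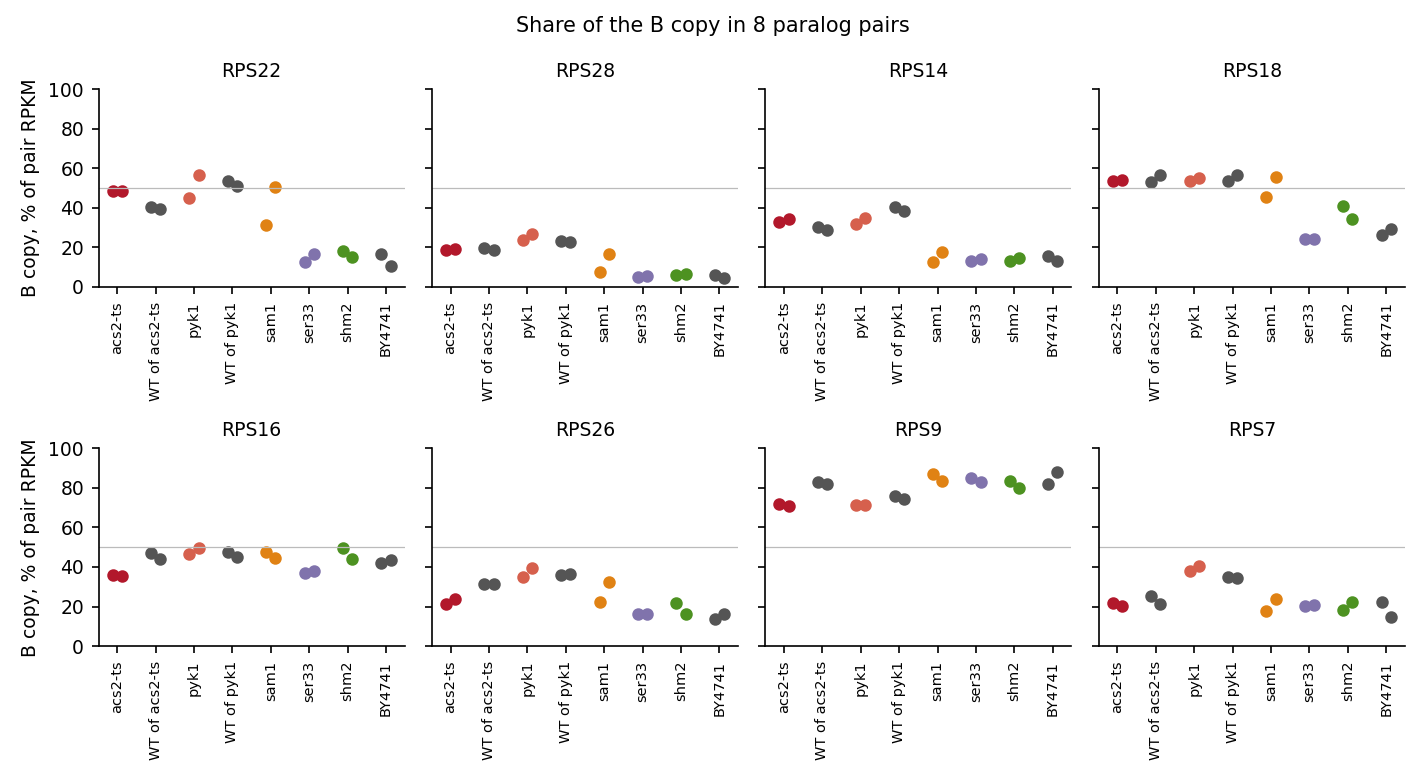
Share of the B copy in the summed RPKM of 8 paralog pairs (y axis, percent) in the 8 strains (x axis); points are the 2 cultures and the grey line marks 50%. RPS22B makes up 10.4% to 18.4% in ser33, shm2 and BY4741 and 31.3% or more elsewhere, and RPS14B 12.4% to 17.4% in sam1, ser33, shm2 and BY4741 and 29.0% or more in the other 4 strains.

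The balance of copies split the strains in ways that the family's total did not. In acs2-ts, whose total was as low as that of ser33, the B copy made up 48.7% of RPS22 in both cultures, against 40.4% and 39.2% in its wild type. For RPS9, whose copies had log2 fold changes of -0.99 (A) and -1.92 (B), it made up 71.6% and 70.8% in acs2-ts, against 83.1% and 81.7% in its wild type. For RPS26, whose copies had log2 fold changes of -1.38 (A) and -2.04 (B), it made up 21.3% and 23.7%, against 31.6% in both wild-type cultures. The A to B ratio did not overlap between acs2-ts and its wild type for 17 of 24 pairs, 8 higher and 9 lower, against 28 of 33 pairs of the large subunit, and the ratio of 2 copies does not depend on how a library is scaled. RPS14B, whose protein is known to repress its own gene's expression, kept a low share in all 4 strains of the BY4741 set, sam1 included. This split ran along the sets of strains, and what sets them apart was not tested. The labels give no strain background for the wild types of acs2-ts and pyk1. Of the other pairs with unequal copies, RPS7 differed in pyk1, where the B copy made up 37.9% and 40.6%, against 35.0% and 34.6% in its wild type, with log2 fold changes of -0.30 (A) and -0.03 (B). In shm2 the log2 fold changes were -0.03 and 0.41 for RPS30A and RPS30B, and 0.13 and 0.79 for RPS18A and RPS18B. RPS6 had an A to B ratio between 0.903 and 1.09 over all 16 cultures, but its copies are the most alike of the 24 pairs, at 99.2% identity, so that this ratio is uncertain.

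Other genes of the translation machinery were described from fixed lists by their counts and medians, beside a background of 78.1% of all genes called lower and 5.7% called higher in acs2-ts, and of 8% called higher and 8.29% called lower in sam1. The 76 large subunit genes had medians close to those of the small subunit genes: in acs2-ts 76 were called lower on the deposited scaling (median -1.56), in sam1 14 were called higher (median 1.29), and the medians in pyk1, ser33 and shm2 were -0.19, -0.10 and 0.31. The ratio of small to large subunit RPKM was 0.738 and 0.743 in acs2-ts, against 0.811 and 0.824 in its wild type. It was 0.853 and 0.823 in sam1, against 0.879 and 0.876 in BY4741. Values of shm2 (0.84 and 0.868) were also below both BY4741 cultures, while those of ser33 (0.878 and 0.867) overlapped them. For pyk1 it was 0.817 and 0.799, against 0.816 and 0.819 in its wild type. Of 25 assembly factors of the 40S subunit, 25 were lower in acs2-ts (median -1.57) and 6 higher in sam1 (median 0.63). Of 30 proteins of the mitochondrial small subunit, 30 were lower in acs2-ts (-1.61) and 10 higher in sam1 (0.32). Of 21 translation factors, 18 were lower in acs2-ts (-1.35) and 0 were called in sam1 (0.21), and of 5 stalk proteins of the large subunit 5 were lower in acs2-ts (-1.23) and 0 were called in sam1 (0.63). Of 9 transcription factors of these genes, 8 were lower and ABF1 higher in acs2-ts on the deposited scaling (median -0.92), and CRF1, a corepressor, was lower in sam1. None of these lists had a call in pyk1, ser33 or shm2.

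Stress-induced genes, a sign of the growth state of a culture, also differed between strains. The summed RPKM of 20 such genes was 6158 and 4349 in sam1, 16878 and 15545 in ser33, and 7108 and 13816 in shm2, against 15856 and 7511 in BY4741. SSA4, HSP42 and SOL4 were called lower in sam1, 3 of the 20, against 8.29% of all genes, and the median log2 fold change of the list was -1.14. The culture with the lower family total had the higher stress sum in acs2-ts, its wild type, sam1, shm2 and BY4741, and the lower one in ser33, pyk1 and the wild type of pyk1. In acs2-ts the stress sum was 14622 and 16808, against 12166 and 8927 in its wild type, with 5 genes called higher and TPS1 lower on the deposited scaling, against 5.7% and 78.1% of all genes. In pyk1 it was 12300 and 11040, against 9255 and 9410 in its wild type. The labels give 1 OD range for all cultures, and the part of growth state in these differences was not tested.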

How the data were processed

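The labels name ribosomal RNA depletion, stranded Illumina libraries and, as tools of the submitters' processing notes, CASAVA 1.8.2, TopHat2 2.0.13 and edgeR on the sacCer3 build. The authors deposited 1 table of RPKM for 7125 genes in 28 libraries; its other 32 columns hold no value, and no column of another sample was used. How reads shared by paralogs were counted is not given in the sources used here. Every culture had 2 libraries, except 1 in pyk1 and its wild type, and libraries were averaged per culture, so that n = 2 for each strain. The p-values rest on the spread between the 2 cultures of a strain, pooled over the strains of a model and moderated across genes. The model of the BY4741 set takes the spread of its strains as equal. The family totals of the 2 ser33 cultures differed 1.11-fold, and those of the other strains in that set 1.53-fold to 1.69-fold. The wild type of acs2-ts has a replicate numbered 2 in its title and 3 in its description, and 2 was used. No library was a duplicate of another: a chi-square over genes, divided by its degrees of freedom, was 27.6 or more between the 2 libraries of each culture. It reached 226.2 in sam1 culture 3, so the libraries of a culture could differ widely.

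Low RPKM of 5879 genes with 1 exon were whole multiples of 1 step per library in 99.5% to 100% of cases (tolerance 0.1 read), which gave the read totals. They set the precision of low genes but entered no test of strains. For genes with introns the steps matched exonic length.

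lmFit and eBayes with a trend (limma 3.58.1, R 4.3.3) were run on log2(RPKM + 1) with no filter, with Benjamini-Hochberg adjustment over 7125 genes, in a model of their own for acs2-ts and for pyk1 and in 1 model for BY4741, sam1, ser33 and shm2. The same fits were run on simulated data with a common spread for all genes and a small set of changed genes. The real data differ from that setting, so the run does not check the fits on them. Gene models, introns and sequences came from RefSeq R64, the assembly behind sacCer3, and 6162 genes matched. Features and figures used Python 3.11.15, Biopython 1.88 and matplotlib 3.10.9.

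The 56 genes and the lists were chosen with earlier results of these data known. Genes were named by a rule: the 8 single-copy genes, the 3 highest and 3 lowest fold changes and the 3 most unequal pairs of each comparison of a mutant with its wild type, and the 3 highest and 3 lowest levels; some genes it names are not reported here. Other members were named after their values were seen, as calls, extremes or pairs of interest. Alternatives were a pseudocount of 0.1, a minimum mean of 1 RPKM, median-of-ratios scaling, scaling to ACT1, other sets of strains in the model, summed pairs, the first library of each culture, the replicate number as a block and each replicate left out.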

Additional observations from a re-analysis of the deposited data

Results flagged for a closer look

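Effects of different mutants on the family were set against each other. The effects of sam1 and ser33 differed for 23 of the 56 genes in the direct comparison of these mutants, all larger in sam1, against 15.5% of all genes. This count fell to 0 without sam1 replicate 3, without ser33 replicate 2 or without ser33 replicate 3. In an 8-strain limma model chosen after seeing the data, the sam1 effect exceeded the acs2-ts effect for 56 members, against 65.6% of all genes, and the median difference was 2.87 for the members and 1.19 for all genes on the deposited scaling. In the same model the sam1 effect exceeded the pyk1 effect for 41 members, against 13.7% of all genes, with a median difference of 1.46 and -0.02 over all genes. That model takes the spread of all strains as equal, although the 2 cultures of sam1, shm2 and BY4741 differed more than those of the other strains.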

How the results depend on the processing

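The count of members called in acs2-ts was 56, against 78.1% of all genes called lower. With median-of-ratios scaling it was 20, 13 lower and 7 higher, against 21.9% and 28.5% of all genes. It was 56 under every other alternative that kept both cultures of each strain, where 5335 to 5564 of all genes were called lower. The family's median relative to all genes, -0.39 as reported, was -0.24 with a pseudocount of 0.1 and -0.18 with median-of-ratios scaling. It was -0.51 to -0.28 with a replicate left out. With median-of-ratios scaling the log2 fold change turned positive for RPS2 (0.37), RPS9A (0.53), RPS12 (0.18), RPS13 (0.44), RPS14A (0.04), RPS14B (0.30), RPS15 (0.34), RPS16A (0.27), RPS20 (0.20), RPS22B (0.05), RPS26A (0.14), RPS28A (0.42), RPS28B (0.41) and RPS31 (0.23). In pyk1 the relative median of -0.19 was -0.18 with median-of-ratios scaling, -0.20 relative to ACT1 and -0.24 to -0.19 with a replicate left out.

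For sam1 against BY4741 the count was 9, against 570 of all genes called higher. It was 26 with a minimum mean of 1 RPKM, against 863, and 53 with all 8 strains in 1 model, against 1431. Relative to ACT1 it was 0, against 1 of all genes called higher. With the first library of each culture it was 0, against 143. With only the 2 groups compared it was 0, and 0 of all genes were called. With a replicate left out the relative median was 0.78 to 1.65, and the same calls were not kept. For sam1 against ser33 the count of 23 was 42 with a minimum mean of 1 RPKM, 48 relative to ACT1, 53 with all 8 strains, 9 with the first library and 0 to 21 with a replicate left out. For sam1 against shm2 the count of 0 was 24 with all 8 strains and 0 to 1 with a replicate left out. The cause of these shifts was not tested. In ser33 and shm2 the relative median ran from -0.45 to 0.36 and from -0.11 to 0.70 with a replicate left out. No member was called under any alternative that kept both cultures of each strain, where at most 18 of all genes were called in either direction.

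The labels do not say whether cultures with the same replicate number share an origin, and this was checked only for BY4741 and ser33. With the number as a replicate block, the counts for sam1 against BY4741 and for sam1 against ser33 were 0, and the other counts of the BY4741 set stayed at 0. In each of these fits 0 of all genes were called. Deviations of the same-numbered BY4741 and ser33 cultures had a correlation of -0.17, and with the ser33 numbers crossed, chosen after seeing the data, 0 members were called.

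With 2 cultures per strain and a median SE of 0.39 on the log2 scale in the BY4741 set, against 0.11 in acs2-ts and 0.08 in pyk1, small changes were least resolved in that set.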
